A study of Mus musculus with 11 samples.

Results

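Expression was compared between 3 DKO add-back lines of mouse embryonic stem (ES) cells and their wild type. Members were taken by genotype label: DKO+Dnmt3a1 (1 library), DKO+Dnmt3a2 (1 library) and DKO+Dnmt3b1 (1 library) and wild-type J1 (WT, 1 library), which are 4 of the 11 libraries of the series. All libraries came from J1 ES cells of strain 129S4/SvJae, grown with serum and leukemia inhibitory factor on irradiated mouse embryonic fibroblasts, so that feeder RNA was part of each library. DKO stands for cells without Dnmt3a and Dnmt3b, and TKO for cells that also lack Dnmt1; the labels give these abbreviations without spelling them out. In the add-back lines 1 de novo enzyme had been put back: Dnmt3a1 (the long form of Dnmt3a), Dnmt3a2 (its short form) or Dnmt3b1 (the full-length form of Dnmt3b). DKO (1 library) and 5 TKO add-back libraries (2 of TKO+Dnmt3a1, 2 of TKO+Dnmt3a2 and 1 of TKO+Dnmt3b1) were used for comparison. The labels do not say how the enzymes were expressed, whether a line was 1 clone, or how long it had been in culture.

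Dnmt3a and Dnmt3b place methyl groups on unmethylated CpG sites, and Dnmt1 copies these marks to the new strand after DNA replication. ES cells without the de novo enzymes lose methylation over passages, and some gene classes that methylation keeps silent, among them germline genes and X-linked Rhox and Xlr genes, become active. A line with a de novo enzyme and Dnmt1 holds both activities, so the comparison asks which expression stayed away from WT under these conditions.

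Values were RPKM (reads scaled to transcript length and library size) from the authors' deposited table, and differences are in log2(RPKM + 0.5). A single limma fit of 5 arms over 11 libraries covered 14229 genes, those that reached 1 RPKM somewhere in the series. Genes with a Benjamini-Hochberg adjusted p below 0.05 are termed called. The 3 lines served as replicates of having any de novo enzyme back. WT was 1 library, so its own spread was not measured and was assumed to be that of the other arms. Judged by the step that 1 read makes in the values, WT held 32.4 M reads and the 3 lines 24.8, 28.4 and 32.5 M.

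The deleted and restored genes were read first. Dnmt3a stood at 22.7 RPKM in WT and 3.63 in DKO, and at 17.6 (DKO+Dnmt3a1), 11.4 (DKO+Dnmt3a2) and 6.76 in DKO+Dnmt3b1. Values of the 3 lines follow this order throughout. Dnmt3b stood at 25.0 in WT, 5.68 in DKO, and 13.3, 14.7 and 29.6 in the same lines. Each restored gene was thus above DKO in its own line. The other de novo gene was also above DKO in each line, and reads from a deleted allele cannot be told apart from those of an intact one here. Dnmt1, the maintenance enzyme, was at 71.0 in WT, 74.5 in DKO and 59.8, 63.1 and 55.9 in the lines, against 7.27 to 12.4 in the TKO add-backs. The difference between DKO and TKO add-backs was 2.65 (limma, adjusted p = 1.41e-04).

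Among other genes of the pathway, Dnmt3l, a catalytically inactive partner of the de novo enzymes, was at 97.0 RPKM in WT and 187, 252 and 190 in the lines (difference 1.10 ± 0.25 SE, adjusted p = 0.102 by limma). Uhrf2, a relative of the Dnmt1 recruiter Uhrf1, was at 39.1 in WT and 24.1, 22.9 and 22.6 in the lines. Uhrf1 itself was at 114 in WT and 94.4, 88.5 and 119 in the lines. Hells, a chromatin remodeller needed for methylation, was at 120 in WT and 138, 137 and 133 in the lines. Trdmt1, a tRNA methyltransferase, was at 2.44 in WT and 3.61, 3.88 and 3.41 in the lines, and Dmap1, a Dnmt1-associated protein, at 19.3 against 18.2, 19.4 and 16.4. None of the 9 genes of this list was called against WT by limma, and 2 had an unadjusted p under 0.05. Among Tet oxidases and base excision genes 0 of 18 were called and 3 had an unadjusted p under 0.05. Of all 14229 genes, 2766 had an unadjusted p under 0.05 against WT.

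The libraries differed in the level of fibroblast and macrophage markers. The summed level of 34 fibroblast markers was 796 RPKM in WT and 1032, 416 and 3412 in the lines. That of the macrophage markers was 54.3 in WT and 48.1, 18.04 and 309 in the lines, and 8 of them were at 0 in DKO+Dnmt3a2. The fibroblast sum was 4532 in TKO+Dnmt3b1 and 1045 to 1714 in the other TKO add-backs. Both Dnmt3b1 libraries were thus high, so feeder amount and the restored enzyme cannot be told apart here. The ES cell markers Pou5f1 (729 RPKM in WT, 658, 716 and 557 in the lines) and Sox2 (260 in WT, 245, 277 and 166 in the lines) were present in all. DKO+Dnmt3b1 stood apart: it had 3121 genes at least 1 log2 unit from WT, against 1100 for DKO+Dnmt3a1 and 1406 for DKO+Dnmt3a2, while DKO+Dnmt3a1 and DKO+Dnmt3a2 differed from each other at 415. In bulk RNA a change in the number of cells of a type and in RNA per cell cannot be told apart.

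A total of 6 promoters are printed, from 250 bases before to 50 after the gene start, 5′ to 3′ on the gene's strand, from RefSeq on GRCm38.p6 (the RPKM values were made on mm9). The first set shows the CpG content of genes that stayed higher than WT, since CpG is what the restored enzymes methylate. They are the genes with the lowest, middle and highest ratio of observed to expected CpG among the named called higher genes that had an entry, with CpG in capitals.
Lincenc1, chr13:97434720-97435019, strand +: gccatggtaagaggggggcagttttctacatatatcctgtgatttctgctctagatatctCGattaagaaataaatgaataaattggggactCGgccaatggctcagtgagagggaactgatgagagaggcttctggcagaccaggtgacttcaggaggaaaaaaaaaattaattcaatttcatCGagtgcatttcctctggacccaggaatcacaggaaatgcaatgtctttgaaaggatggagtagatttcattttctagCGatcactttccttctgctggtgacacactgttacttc
Tmem126b, chr7:90475946-90476245, strand -: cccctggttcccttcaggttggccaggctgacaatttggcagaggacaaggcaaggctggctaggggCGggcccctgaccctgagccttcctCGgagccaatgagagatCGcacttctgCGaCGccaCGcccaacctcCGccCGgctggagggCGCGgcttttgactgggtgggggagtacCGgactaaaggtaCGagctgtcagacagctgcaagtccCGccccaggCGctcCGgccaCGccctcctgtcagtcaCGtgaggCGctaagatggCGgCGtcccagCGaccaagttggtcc
Ddx3y, chrY:1286564-1286863, strand -: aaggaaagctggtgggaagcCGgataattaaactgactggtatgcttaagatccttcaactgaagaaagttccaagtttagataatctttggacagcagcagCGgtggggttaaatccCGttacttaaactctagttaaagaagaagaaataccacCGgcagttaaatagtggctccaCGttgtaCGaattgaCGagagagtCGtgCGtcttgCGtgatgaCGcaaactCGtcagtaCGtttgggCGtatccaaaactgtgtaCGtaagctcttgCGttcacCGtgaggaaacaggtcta
Lincenc1 has 4 CpG in these 300 bases (ratio 0.304), Tmem126b 21 (0.649) and Ddx3y 17 (1.147). Methylation was not measured in these files. CpG content was not compared between called and other genes, because 76.8% of tested genes had an entry.

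The second set is from genes of the hypoxia response and glycolysis list. The 3 largest differences among those at least 1 log2 unit below WT in all 3 lines that have an entry are shown, chosen after their values were seen. Capitals mark the core of the hypoxia response element, ACGTG or GCGTG on either strand.
Aldoc, chr11:78322823-78323122, strand +: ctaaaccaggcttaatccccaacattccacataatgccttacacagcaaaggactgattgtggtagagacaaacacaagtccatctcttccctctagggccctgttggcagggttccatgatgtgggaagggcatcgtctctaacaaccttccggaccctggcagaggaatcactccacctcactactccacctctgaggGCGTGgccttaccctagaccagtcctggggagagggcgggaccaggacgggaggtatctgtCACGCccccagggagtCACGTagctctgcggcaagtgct
Bnip3, chr7:138909457-138909756, strand -: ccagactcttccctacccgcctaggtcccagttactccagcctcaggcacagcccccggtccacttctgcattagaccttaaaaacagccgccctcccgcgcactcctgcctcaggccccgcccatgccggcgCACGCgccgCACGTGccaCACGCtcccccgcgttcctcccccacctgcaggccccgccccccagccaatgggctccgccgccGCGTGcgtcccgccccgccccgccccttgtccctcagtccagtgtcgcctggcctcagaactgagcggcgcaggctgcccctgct
Ldhb, chr6:142507908-142508207, strand -: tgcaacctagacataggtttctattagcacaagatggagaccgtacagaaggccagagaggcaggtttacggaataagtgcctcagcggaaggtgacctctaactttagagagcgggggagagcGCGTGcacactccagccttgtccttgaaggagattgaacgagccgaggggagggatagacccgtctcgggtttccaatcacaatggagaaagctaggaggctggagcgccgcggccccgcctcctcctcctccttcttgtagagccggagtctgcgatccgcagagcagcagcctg
The core occurs 3 times in Aldoc, 5 times in Bnip3 and 1 time in Ldhb, counting each strand and overlaps. It occurs in 23 of the 28 list members with an entry (82.1%), in 63.0% of the tested genes with one, and in 43.8% of all 27025 promoters of that length in the table. The match is a description of the letters only.

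Against WT, 14 genes were called higher in the add-back lines (0.0984% of genes tested) and 6 lower (0.0422%). The higher genes were 5 Y-linked genes, a pair of chromosome 4 zinc finger genes, the neighbours Tmem126a and Tmem126b, Lincenc1, Zfp428, Slc7a7, Snora26 and Zcchc10. The lower genes were Cby1, Csnk1e, Tmem184b and Sh3bp1 from 1 stretch of chromosome 15, and Cpt1a and Sipa1l2. At an unadjusted p under 0.05 there were 2766 genes. The calls rest on few libraries: without DKO+Dnmt3a1 or without DKO+Dnmt3a2 limma called 1 gene (Cby1 in each case, chosen after its values were seen), without DKO+Dnmt3b1 10, and with 9 groups in place of 5 arms 0 at 3530 unadjusted. Without TKO+Dnmt3b1, which enters only through the spread, 155 were called, and without TKO+Dnmt3a1 replicate 1 or 2 and TKO+Dnmt3a2 replicate 1 or 2 there were 10, 10, 9 and 5.

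The enzyme put back is shared by the DKO and TKO add-backs, and a fit with the restored enzyme as a further term, chosen after seeing the data, kept all 20 calls and called 403 genes higher (2.83%) and 468 lower (3.29%). The mean differences from WT are those of the fit without the term, and the spread left over is smaller. The term also takes up other differences that go with the enzyme, such as the fibroblast marker level of both Dnmt3b1 libraries. Genes named below as uncalled that were called in this fit are A2m, Ndufa4l2, Crtac1 and Nxph4, the germline genes Tex14, Stag3, Smc1b, Dmc1 and Sohlh2, and the pluripotency and epiblast genes Gbx2, Tbx3, Nr0b1, Dppa2, Gdf3, Pecam1, Pou3f1, Foxd3 and Car2. Eed, Hk1, Aldoa, Ldhb, Cobl, Lrp2, Cdx1, Pax6, Esx1, Ctgf, Dnmt3l and Uhrf2 were called there as well. Counts of calls in the text are from the fit without the term unless it is named.

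**Figure D1:**
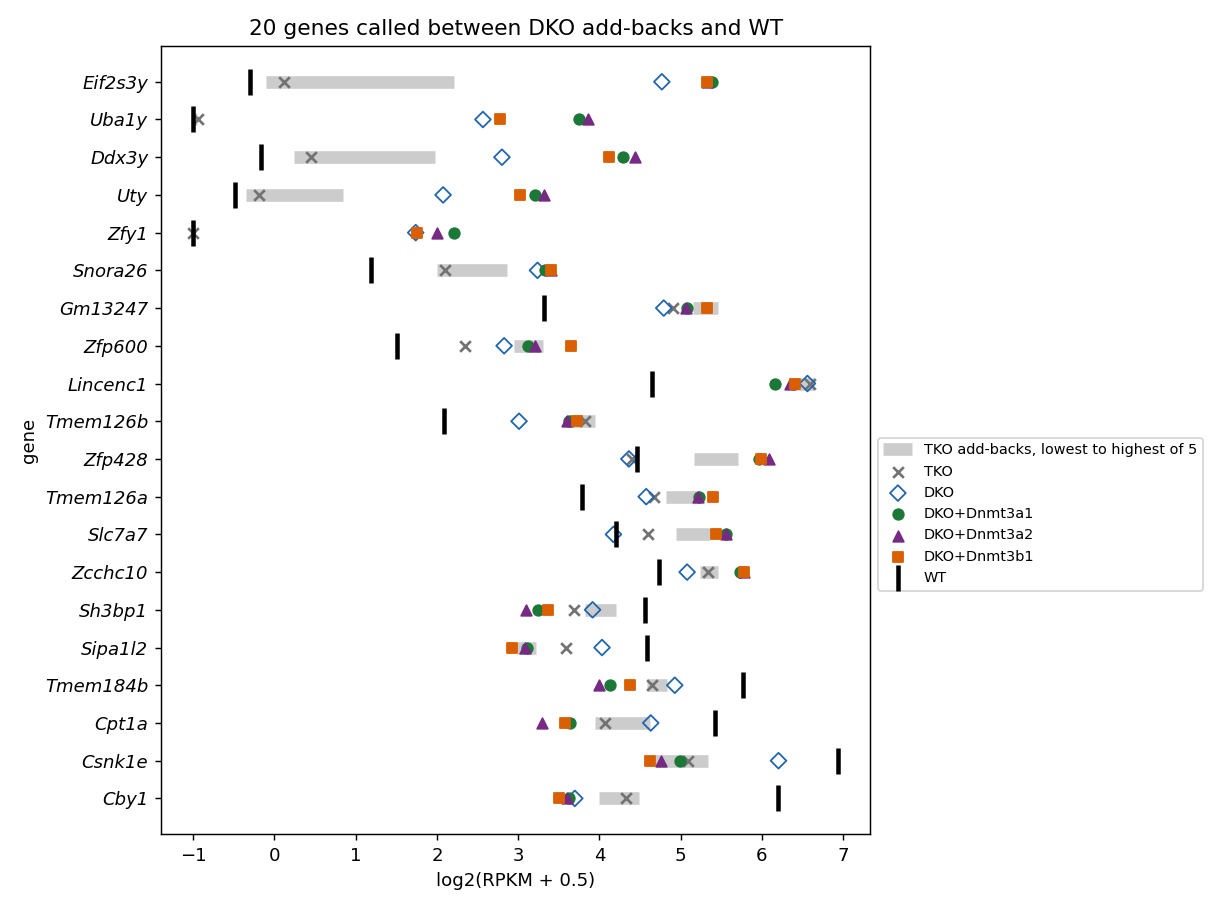
Level of the 20 called genes in log2(RPKM + 0.5), 1 row per gene. Black ticks are WT, filled symbols the 3 DKO add-back lines, open diamonds DKO, crosses TKO and grey bars the range of 5 TKO add-back libraries. The 3 lines lie together on 1 side of WT for every gene shown, and for Lincenc1, Gm13247 and Csnk1e the grey bars lie near the lines too.

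The 5 largest differences among the called genes were those of the Y-linked genes. Eif2s3y, a subunit of a translation initiation factor, was at 0.312 RPKM in WT and at 41.4, 39.5 and 39.4 in the lines (difference 5.64 ± 0.76 SE, adjusted p = 0.0462). Ddx3y, an RNA helicase, was at 0.394 in WT and 18.98, 21.1 and 16.8 in the lines, and Uty, a relative of the histone demethylase Kdm6a, at 0.216 against 8.75, 9.51 and 7.62. Uba1y, a ubiquitin-activating enzyme, and Zfy1, a zinc finger protein, were listed at 0 in WT. In the lines Uba1y was at 12.96, 13.97 and 6.36 and Zfy1 at 4.13, 3.49 and 2.87. The DKO parent had them as well, with Eif2s3y at 26.7, Ddx3y at 6.46 and Uty at 3.72. The TKO add-backs had little: Eif2s3y at 0.427 to 4.14 and Zfy1 at 0 in all 5. All 5 genes differed between DKO and TKO add-backs, by 2.99 (Zfy1) to 4.63 (Eif2s3y). The Y-linked signal thus separates WT and TKO from the DKO family, and whether it relates to methylation cannot be told apart from a difference between the cell lines. Kdm5d, the sixth Y-linked gene tested, was at 0.134 in WT and 0.298, 0.247 and 1.91 in the lines.

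Lincenc1, a long noncoding RNA of ES cells, was at 24.5 RPKM in WT and at 70.9, 80.6 and 84.6 in the lines (difference 1.66 ± 0.16 SE, adjusted p = 0.0101 by limma). DKO had 93.8, TKO 95.5 and the TKO add-backs 81.8 to 99.5, so WT was the low library and all 10 others were high. Zfp600, in a zinc finger cluster on chromosome 4, was at 2.35 in WT and 8.23, 8.71 and 12.04 in the lines (adjusted p = 0.0453). Gm13247 of the same cluster, outside the naming rule, was at 9.47 in WT and 33.3, 33.0 and 39.6 in the lines, and Zfp600 and Gm13247 were at 6.60 and 27.2 in DKO. These genes have close copies, which may share reads, so their single values are uncertain. The adjacent tested genes Gm13139, Gm13152 and Gm13154 were at least 1 log2 unit above WT in all 3 lines, without being called.

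Zfp428, a zinc finger gene, and Slc7a7, a light chain of a cationic amino acid transporter, had another pattern. Zfp428 was at 21.5 RPKM in WT, 20.1 in DKO and 61.9, 67.7 and 63.1 in the lines, and Slc7a7 at 17.9, 17.5 and 46.5, 46.7 and 42.7. WT and DKO were thus close to each other and all 3 lines were higher. Against DKO the differences were 1.65 for Zfp428 (adjusted p = 0.0319) and 1.34 for Slc7a7 (adjusted p = 0.0362). The comparison of the lines with DKO called 49 genes (0.344%), of which 13 were higher and 36 lower (8 and 6 with chromosome medians removed). Without DKO+Dnmt3a1 or DKO+Dnmt3a2 it called 0, with 2259 and 2233 genes at an unadjusted p under 0.05. Without 1 TKO add-back library it called 4 to 14, or 391 where TKO+Dnmt3b1 was left out. The TKO add-backs were at 35.2 to 51.9 for Zfp428 and 30.2 to 40.5 for Slc7a7. Zfp428 differed between the DKO and TKO add-backs by 0.58 (adjusted p = 0.0241). That comparison called 1970 genes (13.8%), 684 higher and 1286 lower, against 839 and 617 after quantile normalization, 1041 and 899 after median ratio scaling and 1019 and 680 with chromosome medians removed. Leaving out DKO+Dnmt3a1 gave 371 and leaving out DKO+Dnmt3a2 gave 369. It called 1018, 1186 and 904 without TKO+Dnmt3a1 replicate 1 or 2 or TKO+Dnmt3a2 replicate 2, and 3205 without TKO+Dnmt3b1. With the restored enzyme as a term the comparison with DKO called 886 and that with the TKO add-backs 3271.

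Tmem126a and Tmem126b lie next to each other on chromosome 7; Tmem126b is an assembly factor of mitochondrial complex I. Tmem126b was at 3.76 RPKM in WT, 7.56 in DKO and 11.9, 11.6 and 12.8 in the lines (difference 1.56 ± 0.18 SE, adjusted p = 0.0213 by limma). Tmem126a was at 13.3 in WT, 23.3 in DKO and 37.0, 36.5 and 41.8 in the lines. The TKO add-backs overlapped the lines, at 11.9 to 14.9 for Tmem126b and 27.8 to 37.1 for Tmem126a. DKO stood between WT and the lines for both. Of the tested genes just before them, Picalm, a clathrin assembly protein, was at 25.3 in WT and 62.1, 62.2 and 68.2 in the lines, and Crebzf, a transcription factor, at 5.21 against 12.57, 16.79 and 12.97. Eed, a core subunit of Polycomb complex 2 in the same neighbourhood, was at 36.0 in WT and 96.7, 110 and 76.1 in the lines (difference 1.36, adjusted p = 0.0533). Snora26, a small nucleolar RNA, was at 1.77 in WT and 9.57, 10.07 and 10.04 in the lines, and Zcchc10 at 26.1 against 52.6, 54.5 and 54.3. Both were called but are not among the genes that the naming rule picked: it leaves out small nucleolar RNAs, and Zcchc10 did not reach 1 log2 unit in DKO+Dnmt3a1 (0.99). A library without strand cannot tell reads of Snora26 from those of an overlapping transcript.

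Cby1, an antagonist of beta-catenin, had the lowest adjusted p of the comparison. It was at 72.7 RPKM in WT and 11.8, 11.6 and 10.8 in the lines (difference -2.62 ± 0.19 SE, adjusted p = 0.00485 by limma). DKO was at 12.5, TKO at 19.6 and the TKO add-backs at 15.5 to 21.8, so WT stood alone. Csnk1e, a casein kinase of Wnt signalling and the circadian clock, was at 122 in WT, 73.2 in DKO and 31.3, 26.7 and 24.1 in the lines. Here DKO stood between WT and the lines, and the TKO add-backs (25.2 to 39.9) overlapped the lines. Tmem184b, a transmembrane protein, was at 54.1 in WT, 29.9 in DKO and 17.0, 15.4 and 20.3 in the lines. Sh3bp1, a GTPase-activating protein for Rac, was at 23.1 in WT, 14.6 in DKO and 8.93, 8.03 and 9.81 in the lines.

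These 4 genes lie close together. In a stretch of 35 consecutive tested genes of chromosome 15 around them, marked out after the values were seen, 27 (77.1%) were lower than WT in all 3 lines and 5 were higher in all 3. The 4 called genes that placed the stretch are among the 27, so this share is not independent of how it was marked out. Over all genes tested 35.8% were lower than WT in all 3 lines, and among the other 532 genes of chromosome 15 it was 36.7%. The stretch had a median difference of -0.85, -0.74 and -1.03 in the 3 lines. It was -0.58 in DKO, -0.59 in TKO and -0.68 to -0.34 in the TKO add-backs. By this median every other library was below the 1 WT library. Members include Maff, a small Maf transcription factor (19.7 RPKM in WT, 8.72, 6.17 and 9.45 in the lines), Kdelr3, an endoplasmic reticulum retention receptor (25.4 in WT, 7.80, 5.08 and 11.3), and the meiotic recombinase Dmc1. Ddx17, an RNA helicase between Kdelr3 and Dmc1, was at 99.2 in WT and 116, 116 and 108 in the lines.

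**Figure D2:**
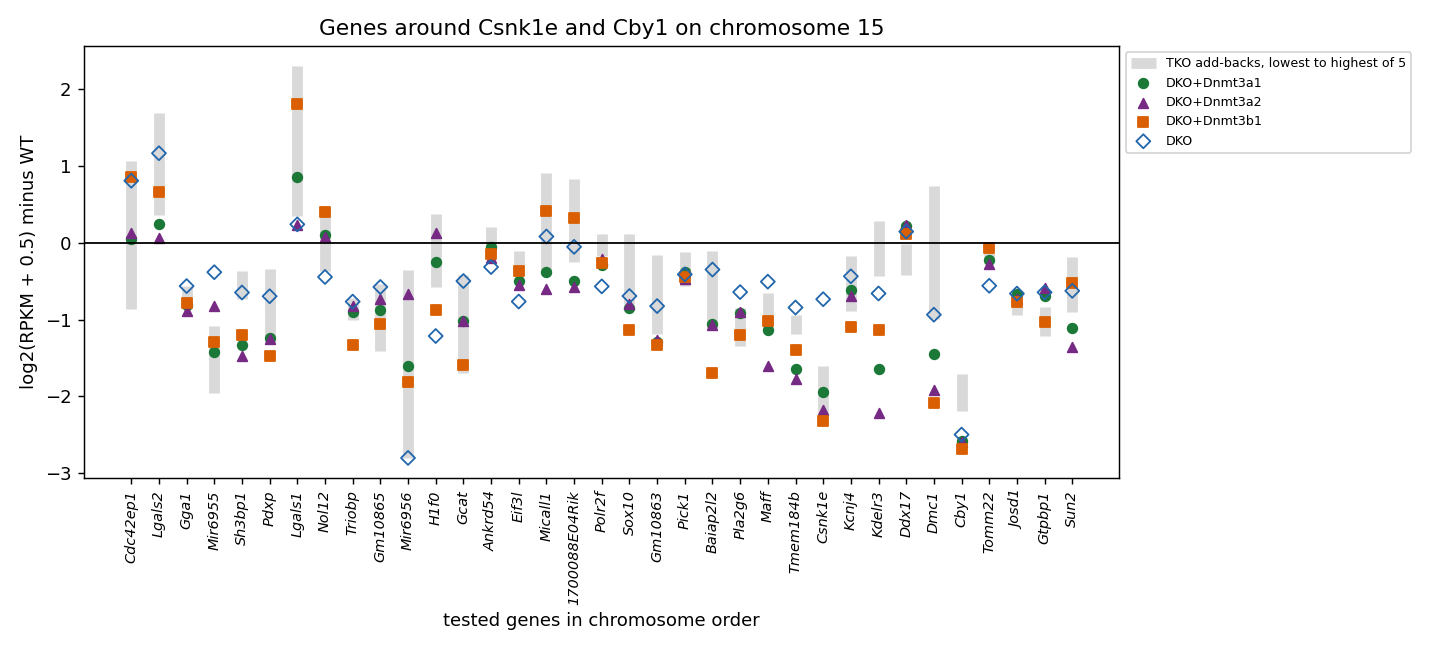
Difference from WT in log2(RPKM + 0.5) for 35 tested genes in their order on chromosome 15. Filled symbols are the 3 DKO add-back lines, open diamonds DKO and grey bars the range of 5 TKO add-back libraries; 27 of the 35 genes lie below 0 in all 3 lines.

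Cpt1a, which carries fatty acids into mitochondria, was at 42.4 RPKM in WT, 24.3 in DKO and 11.97, 9.30 and 11.4 in the lines (difference -1.92 ± 0.27 SE, adjusted p = 0.048 by limma). Sipa1l2, a GTPase-activating protein of the SIPA1 family on chromosome 8, was at 23.6 in WT, 15.9 in DKO and 8.09, 7.94 and 7.10 in the lines. The TKO add-backs were at 7.39 to 8.78 for Sipa1l2, overlapping the lines, and at 14.9 to 24.1 for Cpt1a, above them. For both genes the lines did not overlap WT or DKO. Their calls held under 8 (Cpt1a) and 13 (Sipa1l2) of the 22 and 21 alternatives that included them. With chromosome medians removed both calls were lost, at -1.97 for Cpt1a and -1.25 for Sipa1l2.

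Uncalled genes with the largest distances on the lower side were A2m, Ndufa4l2, Crtac1 and Nxph4. A2m, a protease inhibitor, was at 16.5 RPKM in WT, 4.02 in DKO and 1.60, 1.13 and 1.03 in the lines (difference -3.30 ± 1.23 SE, adjusted p = 0.197 by limma). Ndufa4l2, a mitochondrial protein known to respond to hypoxia, was at 66.4 in WT, 42.9 in DKO and 8.49, 8.92 and 2.27 in the lines. Nxph4, a neurexophilin, was at 12.6 in WT and 1.85, 1.30 and 0.829 in the lines, and Crtac1, a secreted matrix protein, at 5.48 against 0.518, 0.399 and 0.533. The TKO add-backs were spread widely for Ndufa4l2 (2.04 to 44.1) and A2m (0.479 to 11.1).

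Counted line by line, 293 genes (2.06%) were at least 1 log2 unit above WT in all 3 lines and 354 (2.49%) at least that far below. Without DKO+Dnmt3b1 the counts were 361 and 440. Among the genes on the higher side that the naming rule did not reach, picked after their values were seen, Myc, the growth-promoting transcription factor, was at 6.93 RPKM in WT, 5.22 in DKO and 37.8, 32.2 and 60.0 in the lines (adjusted p = 0.192). Wt1, a developmental transcription factor, was at 0.729 in WT, 0.968 in DKO and 9.64, 7.65 and 7.62 in the lines (adjusted p = 0.0665). Bend3, a chromatin repressor, was at 3.44 in WT, 10.96 in DKO and 21.1, 25.5 and 24.7 in the lines. On the lower side Kit, the stem cell factor receptor, was at 25.8 in WT, 14.3 in DKO and 5.43, 6.20 and 4.24 in the lines. Txnip, an inhibitor of glucose uptake, was at 774 in WT, 374 in DKO and 209, 146 and 152 in the lines. None of these 5 was called.

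Glycolysis and hypoxia response genes were below WT in the lines. Of the 31 members tested, 29 were lower than WT in all 3 lines and 11 at least 1 log2 unit lower in all 3, against 35.8% and 2.49% of all genes. The list's median was -0.87, -0.95 and -1.27 in the 3 lines and -0.20 in DKO. Aldoc, an aldolase whose promoter is printed above, was at 31.2 RPKM in WT, 26.1 in DKO and 8.59, 7.65 and 3.29 in the lines. Its difference was -2.27 ± 1.29 SE (adjusted p = 0.358 by limma). Bnip3, a mitophagy receptor, was at 158 in WT, 108 in DKO and 59.7, 57.4 and 21.7 in the lines. Ldhb, a lactate dehydrogenase subunit, was at 253 in WT, 447 in DKO and 91.5, 90.2 and 47.5 in the lines.

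Of the enzymes of glycolysis, hexokinase Hk1 was at 37.4 RPKM in WT, 39.7 in DKO and 15.9, 13.1 and 13.7 in the lines (difference -1.37 ± 0.31 SE, adjusted p = 0.0991 by limma). Aldoa, the most abundant aldolase, was at 1638 in WT, 1408 in DKO and 630, 583 and 502 in the lines. Phosphoglycerate kinase Pgk1 was at 420 in WT and 184, 182 and 127 in the lines, and phosphofructokinase Pfkp at 92.7 against 37.2, 39.5 and 28.2. P4ha1, a collagen prolyl hydroxylase, was at 45.5 in WT and 14.8, 11.2 and 15.9 in the lines, and the oxygen sensor Egln1 at 24.7 against 10.5, 10.2 and 10.1. Gpi1, the glucose phosphate isomerase, was at 245 in WT and 117, 120 and 101 in the lines, and Ndrg1, a hypoxia-induced gene, at 21.7 against 7.57, 7.68 and 7.92.

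None of the 31 was called against WT by limma, and 12 had an unadjusted p under 0.05, as had 2766 of all 14229 genes. With the restored enzyme as a term 3 of the 31 (9.68%) were called, all lower. Of all genes 3.29% were called lower in that fit, and 6.12% in either direction. The summed level of the list was 8196 RPKM in WT, 6932 in DKO and 4491, 4630 and 3330 in the lines, and ran from 3395 to 8448 over the 5 TKO add-backs, whose range holds 2 of the 3 lines. The 2 TKO+Dnmt3a2 replicates were at 4536 and 6934, and those of TKO+Dnmt3a1 at 7388 and 8448. The list is thus variable among libraries of 1 arm and between replicates of 1 line, while WT and each DKO add-back line had 1 library. Of its members 1, Hk1, was called between the DKO and TKO add-backs (-0.75, adjusted p = 0.0382 by limma). Fibroblast marker sums were 1032, 416 and 3412 RPKM in the 3 lines. DKO+Dnmt3b1 was highest in these and lowest in the hypoxia list, and DKO+Dnmt3a1 and DKO+Dnmt3a2 were close in the hypoxia list at different fibroblast levels. The fibroblast level was a covariate in an alternative fit over all genes, which was not summarised for this list. The part of feeder content in the list's values was not otherwise tested.

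**Figure D3:**
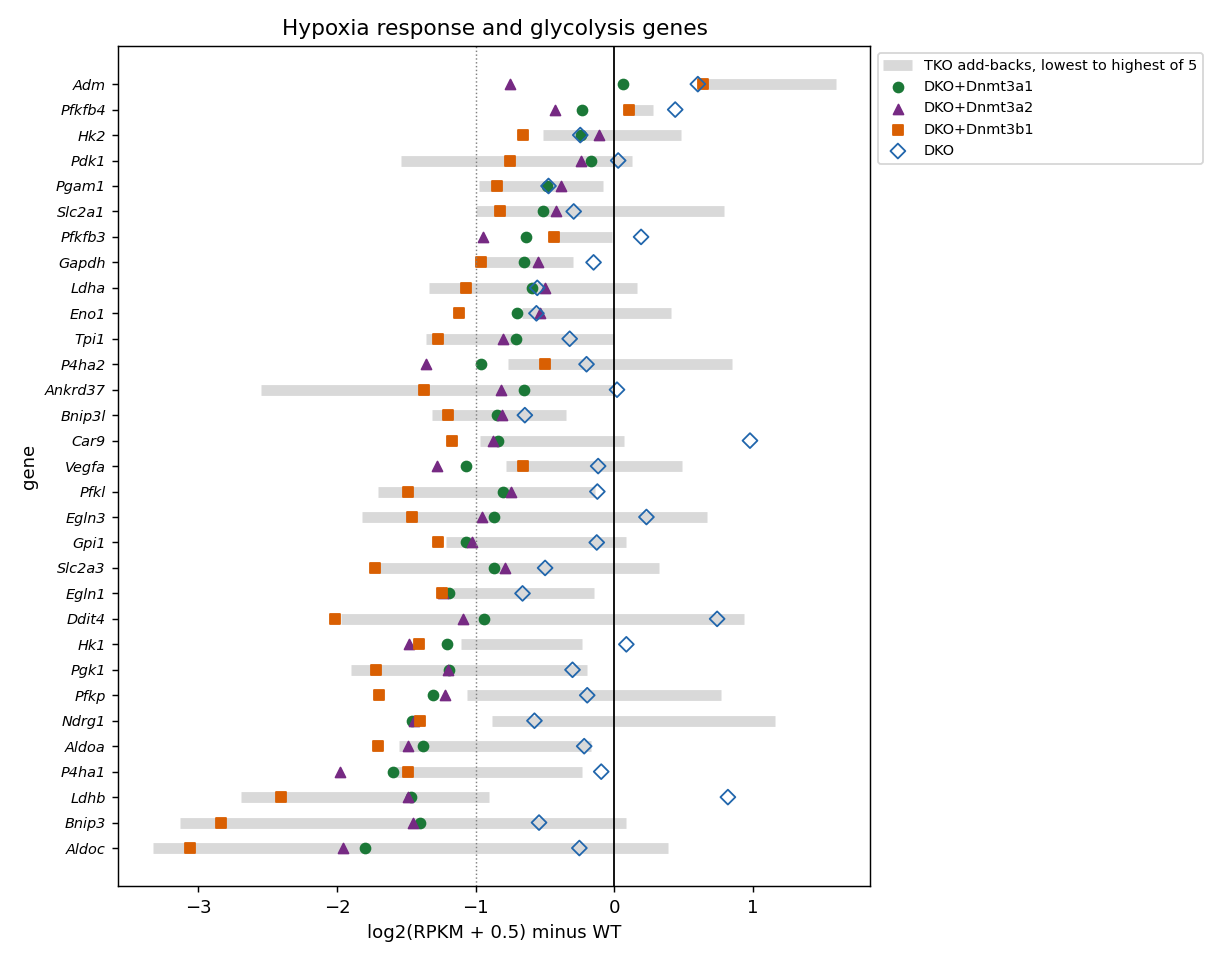
Difference from WT in log2(RPKM + 0.5) for 31 hypoxia response and glycolysis genes. Filled symbols are the 3 DKO add-back lines, open diamonds DKO, grey bars the range of 5 TKO add-back libraries, and the dotted line marks -1; all 3 lines lie left of 0 for 29 genes, and the grey bars cover many of them.

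Pluripotency genes lay on both sides of WT. Of the core factors, Pou5f1 differed by -0.19 on average, Sox2 by -0.22 and Nanog by -0.48 (Nanog: 214 RPKM in WT, 148, 162 and 149 in the lines). Of 31 core and naive genes, 4 were at least 1 log2 unit higher and 2 lower in all 3 lines (2.06% and 2.49% of all genes), and 0 were called against WT by limma. Gbx2, a homeobox factor of the early epiblast, was at 6.94 in WT, 7.61 in DKO and 49.9, 61.3 and 39.7 in the lines (difference 2.75 ± 0.62 SE, adjusted p = 0.102). The TKO add-backs were at 5.93 to 22.3, below all 3 lines (difference 2.18, adjusted p = 0.012). Nr0b1, an orphan nuclear receptor, was at 23.9 in WT and 58.0, 70.0 and 73.6 in the lines. Dppa2, a chromatin regulator of early development, was at 23.4 in WT and 53.4, 49.9 and 66.5 in the lines, and the TGF-beta family ligand Gdf3 at 12.7 against 27.9, 29.9 and 32.8. Tbx3, a T-box factor of the naive state, was at 29.8 in WT, 7.15 in DKO and 8.24, 7.16 and 8.76 in the lines (adjusted p = 0.0655). Pecam1, an adhesion molecule, was at 35.9 in WT and 13.4, 12.1 and 7.18 in the lines.

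Formative and primed epiblast genes were higher than WT in all 3 lines for 16 of 22 members, lower for 1, and at least 1 log2 unit higher for 4, against 34.7% of all genes that were higher in all 3. Over the list the median was 0.70, 0.74 and 0.62 in the 3 lines and 0.23 in DKO. Foxd3, a forkhead factor, was at 1.73 RPKM in WT, 4.89 in DKO and 9.98, 13.3 and 17.5 in the lines (difference 2.63 ± 0.67 SE, adjusted p = 0.112 by limma). Car2, a carbonic anhydrase, was at 7.91 in WT, 12.3 in DKO and 46.4, 47.0 and 48.8 in the lines. Pou3f1, a POU factor of the formative state, was at 4.42 in WT and 13.69, 12.60 and 13.02 in the lines. Spry2, a feedback inhibitor of FGF signalling, was at 33.9 in WT, 29.5 in DKO and 80.9, 89.5 and 71.0 in the lines. None of the 22 was called against WT, while 9 were called higher in the DKO than in the TKO add-backs. Of all 14229 genes, 684 were called higher in that comparison, and 13.8% in either direction. Otx2, another gene of that stage, was at 7.60 in WT and 7.65, 6.35 and 5.31 in the lines.

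Of the germline genes with methylated promoters, 20 of 37 were lower and 8 higher than WT in all 3 lines, and 7 were at least 1 log2 unit lower, against 35.8%, 34.7% and 2.49% of all genes. None was called against WT by limma. Of the 37, 8 had an unadjusted p under 0.05, as had 2766 of all 14229 genes. The 7 included genes of the meiotic chromosome axis and of recombination. Among them, the recombinase Dmc1 also lies in the chromosome 15 stretch described above. Smc1b, a meiotic cohesin, was at 8.54 RPKM in WT, 17.7 in DKO and 1.81, 1.47 and 2.79 in the lines. Its level was below WT (difference -1.88 ± 0.42 SE, adjusted p = 0.0982 by limma) and fell against DKO (-2.89, adjusted p = 0.0417). Stag3, another meiotic cohesin, was at 41.2 in WT, 29.4 in DKO and 12.6, 13.9 and 11.4 in the lines. Dmc1 was at 7.23 in WT, 3.54 in DKO and 2.34, 1.55 and 1.31 in the lines, and Tex14, a component of intercellular bridges, at 11.6, 7.75 and 4.19, 3.56 and 2.01. Sohlh2, a germ cell transcription factor, was at 17.6 in WT and 4.80, 3.12 and 5.03 in the lines. Mov10l1, an RNA helicase of the piRNA pathway, was at 9.64 in WT and 4.16, 4.10 and 3.54 in the lines, and Dpep3, a dipeptidase of the testis, at 2.60 against 0.522, 0.372 and 0.704. Dazl, a germ cell RNA-binding protein, was at 8.73 in WT and 2.92, 2.96 and 9.01 in the lines, so the lines lay on both sides of WT.

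X-linked Rhox, Xlr and Mage genes were at low levels in WT and the lines and higher in DKO. Of the 23 tested, 5 were higher than WT in all 3 lines and 0 lower, against 34.7% and 35.8% of all genes. Of the 39 list genes with values, 21 were at 0 in WT and 22, 26 and 13 in the lines. Medians near 0 may thus rest on values at the floor. Of 23 tested members 0 were at least 1 log2 unit from WT in all 3 lines and 0 were called against WT by limma (1 had an unadjusted p under 0.05), and the list's median was 0, 0 and 0.38 in the lines against 2.35 in DKO. Xlr3c, at 0.019 RPKM in WT and 21.5 in DKO, was at 0.277, 0.154 and 0.498 in the lines (difference from DKO -4.78, adjusted p = 0.0183). Xlr3a was at 0.872 in WT, 27.7 in DKO and 0.871, 0.169 and 1.60 in the lines. Against DKO 6 of the 23 were called lower. Of all 14229 genes, 36 were called lower in that comparison, and 0.344% in either direction. The 23 were tested because each reached 1 RPKM in some library, and DKO and the TKO libraries counted for this. Members under 1 RPKM in WT and the lines could enter only through those libraries. The high DKO median and the calls against DKO are thus not independent of the filter. How far the filter set them was not tested. Xlr3 and Rhox2 genes have close copies that may share reads. Pnma5, an X-linked gene of the same list, was at 2.27 in WT, 18.3 in DKO and 4.18, 4.19 and 5.45 in the lines, above WT in all 3.

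Of 31 paternally expressed genes 19 were higher than WT in all 3 lines and 5 lower (34.7% and 35.8% of all genes), and 3 were at least 1 log2 unit higher (2.06% of all genes): Mest (37.6 RPKM in WT; 83.4, 95.5 and 76.9 in the lines), Magel2 (0.215; 1.60, 1.21 and 1.39) and Sfmbt2, a Polycomb-related protein (3.06; 13.2, 14.95 and 7.29). Of 20 maternally expressed genes 5 were higher and 6 lower in all 3 lines. Cdkn1c, a cyclin-dependent kinase inhibitor, was higher in all 3 lines, at 6.16 in WT and 14.79, 59.08 and 12.997 in the lines. Cobl, an actin nucleator, was lower, at 51.2 in WT, 16.5 in DKO and 22.8, 24.5 and 14.8 in the lines. The noncoding RNAs of the Dlk1-Dio3 domain split the lines. Meg3 was at 31.6 in WT, 40.1 in DKO and 3.85, 4.57 and 99.7 in the lines, and Rian, in the same order, at 27.1, 35.1, 2.78, 4.48 and 102. The 2 lines with a Dnmt3a form were thus below WT and the line with Dnmt3b1 above it, with 1 library each and no test between them. None of the imprinted genes tested was called against WT by limma, with 5 maternally and 9 paternally expressed ones at an unadjusted p under 0.05. Of all 14229 genes, 2766 were under that level.

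Of 19 genes of the 2-cell-like state 9 were higher than WT in all 3 lines and 0 lower, against 34.7% and 35.8% of all genes, and DKO+Dnmt3b1 was the highest line. Zscan4d, which marks a rare early-embryo-like state in ES cultures, was at 5.94 RPKM in WT, 0.523 in DKO, and 9.97, 8.48 and 39.3 in the lines. The list's median over 19 members was 0.18, -0.01 and 2.11 in these lines and -1.20 in DKO, so DKO was below WT and DKO+Dnmt3b1 above. Zscan4 genes have close copies. In the differentiation lists, the members on 1 side of WT in all 3 lines were 6 higher and 0 lower of 11 for neural ectoderm, 9 higher and 3 lower of 23 for endoderm, 2 higher and 6 lower of 17 for mesoderm and primitive streak, 3 higher and 5 lower of 18 for trophoblast and 7 higher and 9 lower of 24 for the Nodal pathway, against 34.7% higher and 35.8% lower of all genes. None of these was called against WT by limma. The eye and brain factor Pax6 was at 1.05 in WT, 4.78 in DKO and 5.05, 6.20 and 4.10 in the lines. Lrp2, an endocytic receptor of visceral endoderm, was at 1.495 in WT and 3.99, 4.66 and 6.58 in the lines. Cdx1, a caudal factor, was at 5.72 in WT, 0.480 in DKO and 1.23, 0.950 and 0.708 in the lines, and Esx1, a trophoblast homeobox factor, at 4.95, 4.98 and 1.49, 0.954 and 0.492.

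The same counts were 9 higher and 13 lower of 33 for Polycomb, 5 higher and 8 lower of 35 for the interferon response, 6 higher and 15 lower of 32 for glutathione enzymes and 4 higher and 2 lower of 9 for methyl-CpG readers, with the same shares of all genes and again with 0 called. The p53 targets had a median of -0.41 with 0 of 23 called against WT by limma and 0 at least 1 log2 unit away in all 3 lines. Of the interferon response genes, the antiviral Oas3 (3.22 RPKM in WT; 1.33, 1.34 and 0.827 in the lines) and Oas1c (1.79; 0.557, 0.425 and 0.635) were lower in all 3. The glutathione list held Gstm3, a transferase (4.86 in WT, 19.3 in DKO; 1.53, 1.33 and 0.682 in the lines), and Gpx2, a peroxidase (1.14 in WT, 19.2 in DKO; 3.91, 3.22 and 5.81). E130012A19Rik, counted with the Polycomb list, was at 47.8 in WT and 113, 112 and 149 in the lines. Ctgf, the 1 fibroblast marker at least 1 log2 unit above WT in all 3 lines, was at 10.04 in WT and 33.7, 21.0 and 91.9 in the lines.

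**Figure D4:**
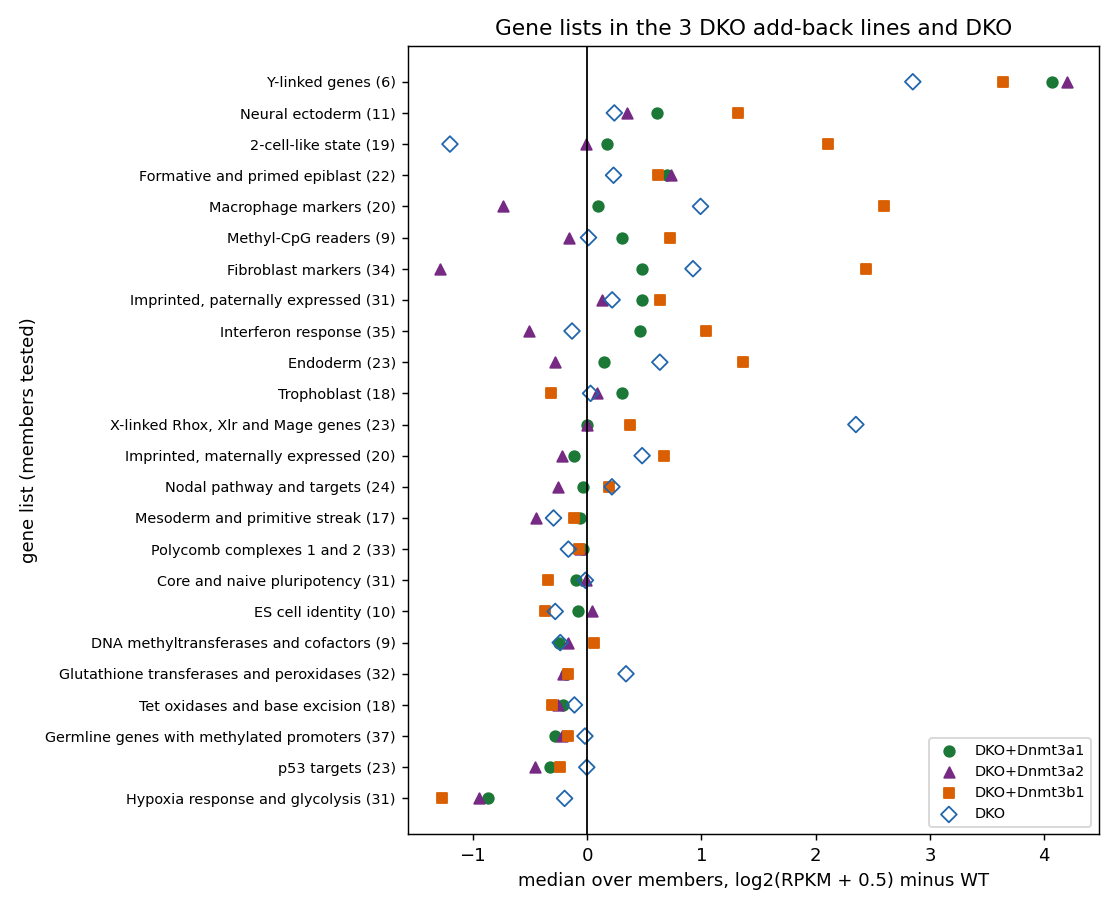
Median difference from WT in log2(RPKM + 0.5) over the tested members of each gene list. Filled symbols are the 3 DKO add-back lines and open diamonds DKO; the hypoxia list lies below WT in all 3 lines, the epiblast list above, and the fibroblast and macrophage lists on both sides.

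**Figure D5:**
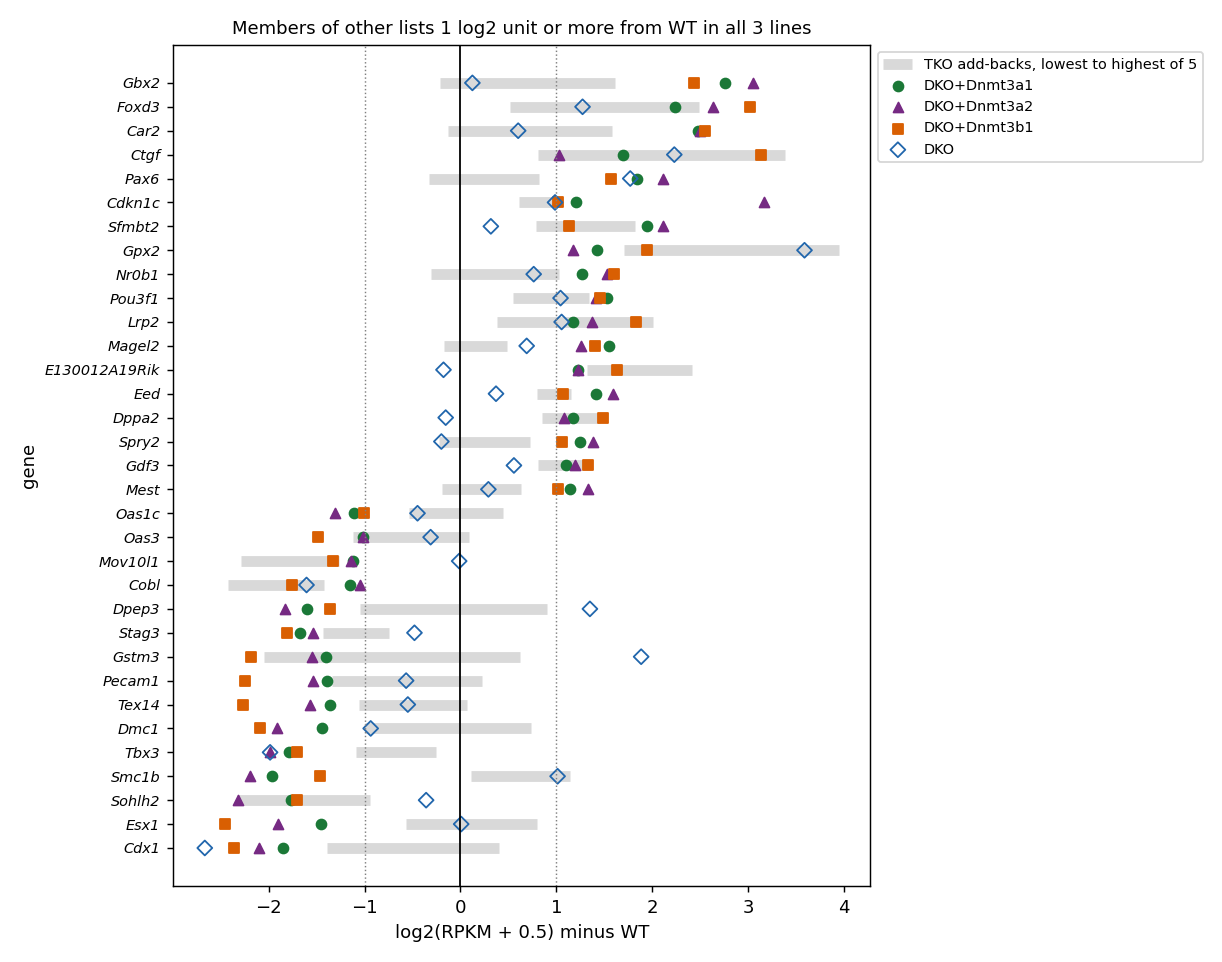
Difference from WT in log2(RPKM + 0.5) for list members at least 1 log2 unit from WT on the same side in all 3 DKO add-back lines, other than hypoxia and Y-linked genes. Filled symbols are the lines, open diamonds DKO, grey bars the range of 5 TKO add-back libraries, and dotted lines mark 1 unit; by the mean of the 3 lines Gbx2, Foxd3 and Car2 lie farthest above WT and Cdx1 farthest below.

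The genes that varied most between the 3 lines, among those at 10 RPKM or more in 1 of them, were Lyz2, Tnc, Mmp3, Grem1, Serpinb2, Il1rl1, Inhba, AF357359, Fbln2 and Prrx1. Of these Lyz2 is on the macrophage list and Prrx1 on the fibroblast list. Lyz2, a lysozyme of macrophages, was at 12.9 RPKM in WT and 19.5, 0.066 and 180 in the lines. Tnc, the matrix protein tenascin C, was at 9.20 in WT and 17.4, 1.90 and 227 in the lines. AF357359, a transcript of the Dlk1-Dio3 domain, was at 29.3 in WT and 2.73, 1.19 and 72.7 in the lines. All 10 were highest in DKO+Dnmt3b1 and lowest in DKO+Dnmt3a2.

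By chromosome, the median difference from WT departed by 0.1 or more from that of all genes (0.034) on 3 chromosomes. Chromosome 18, at 0.134, lay just under that distance before rounding. Chromosome 3 stood at 0.151 over 665 genes, with 0.134, -0.025 and 0.192 in the lines. Chromosome 8 stood at -0.121 over 776 genes, with -0.107, -0.211 and -0.135 in the lines and -0.041 in DKO, and 41 of its genes (5.28%, against 2.49% of all) were at least 1 log2 unit below WT in all 3 lines. The TKO add-backs were lower still on chromosome 8, at -0.368 to -0.218, while TKO stood at 0.061. Chromosome Y stood at 4.05 over 6 genes. With the median of each chromosome removed, Sipa1l2 on chromosome 8 moved from -1.56 to -1.25 and was no longer called, Egln1 on chromosome 8 moved from -1.22 to -0.92, and Car2 on chromosome 3 from 2.51 to 2.47.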

How the data were processed

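PolyA RNA of mouse ES cells was sequenced from libraries made with the TruSeq RNA kit v2, which keeps no strand, per the labels' protocols. The submitters' processing notes name bcl2fastq 1.8.4, STAR 2.4.0 and the build mm9. The authors deposited RPKM for 24016 genes, 1 RefSeq transcript each; the counting tool is not given in the sources used here. Values were used as log2(RPKM + 0.5) without further scaling, which understates changes of low genes. The estimated totals ran from 21.76 to 32.78 M reads over the 11 libraries; 86.4% to 91.5% of values of up to 5 reads in transcripts of up to 400 nt came out whole within 0.05. At 32.38 M reads, 1 read in a 2 kb transcript is 0.0154 RPKM.

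The fit (limma 3.58.1, R 4.3.3; lmFit, eBayes with trend) had 5 arms: WT, TKO, TKO add-back, DKO and DKO add-back, with 6 residual degrees of freedom. It was run on simulated data in which libraries varied independently, with the same spread in every arm. Such data cannot show whether the real lines act as replicates or whether WT varies like the other arms. WT, TKO and DKO had no replicates, so the residual spread came only from the add-back arms, and more of it from the TKO add-backs, which have more libraries. It holds differences between lines with different restored enzymes as well as between replicates of the same line. Nothing in the labels says that libraries came from separate cultures, so the spread between replicates may be technical. The p-values measure only the spread between these libraries. No libraries held identical values. Chromosomes and gene order came from RefSeq (GRCm38.p6), matched for 23960 genes.

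The members and lists were chosen with earlier results of these data known. Named were genes at least 1 log2 unit from WT on the same side in all 3 lines, at 1 RPKM or more in WT or in all 3, not named as predicted genes, clones, pseudogenes, microRNAs or small nucleolar RNAs, namely the 15 largest called in each direction, filled to 10 with uncalled ones, list members among them, the 10 genes most variable between lines, and the methyltransferase list. Alternatives were other pseudocounts, filters, scalings, groupings, a fibroblast covariate, the restored enzyme as a term and leaving out each of the 8 add-back libraries.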

Additional observations from a re-analysis of the deposited data

Results flagged for a closer look

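For 30 of 68 named genes, the DKO add-backs differed from the TKO add-backs, which lack Dnmt1, at an adjusted p under 0.05 (limma), against 13.8% of all genes. Values are differences of DKO add-backs minus TKO add-backs in log2(RPKM + 0.5). For Y-linked genes they were Eif2s3y 4.63, Uba1y 4.45, Ddx3y 3.46, Uty 3.18 and Zfy1 2.99. For other called higher genes they were Zfp428 0.58, Snora26 0.95 and Zcchc10 0.39. On the lower side they were Cby1 -0.63, Cpt1a -0.87, Tmem184b -0.55, Sh3bp1 -0.79 and Crtac1 -1.82. Among germline genes they were Tex14 -1.33, Smc1b -2.54, Dmc1 -1.87 and Dpep3 -1.61, and among imprinted genes Mest 0.94 and Magel2 1.30. Among pluripotency and epiblast genes they were Nr0b1 0.97, Gbx2 2.18, Car2 1.91, Spry2 1.08, Tbx3 -1.22 and Pecam1 -1.33. For members of other lists they were Cdx1 -1.855, Pax6 1.75, Esx1 -2.24, Oas1c -1.25 and Hk1 -0.75. The genes were named for their distance from WT, and these differences share the DKO add-back libraries with that comparison.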

How the results depend on the processing

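Against WT the count of 20 called genes became 13 with a pseudocount of 0.1, 123 with all genes above 0, 39 with genes at 5 RPKM or more, and 6 with the chromosomes that stand apart left out (14 of the 20 were still tested). It was 0 with 9 groups (3530 genes at an unadjusted p under 0.05), 1 with only the 2 arms compared, 1 with each TKO line counted once, and 700 with the fibroblast level as covariate. It was 65 without both Dnmt3b1 libraries and 871 with the restored enzyme as a term, both chosen after seeing the data, and 1 to 155 leaving out each add-back library. Against DKO the count of 49 became 270 with all genes above 0, 28 at 5 RPKM or more, 19 after quantile normalization, 14 with chromosome medians removed, and 0 with 9 groups and with only the 2 arms (3518 and 3576 at an unadjusted p under 0.05). It was 9 with each TKO line counted once, 2250 with the covariate, 629 without both Dnmt3b1 libraries, 886 with the enzyme term and 0 to 391 leaving out each add-back library. Against the TKO add-backs the count of 1970 became 682 with each TKO line counted once, 4017 with the covariate, 3113 without both Dnmt3b1 libraries, 3271 with the enzyme term and 369 to 3205 leaving out each add-back library. Quantile normalization moved the median of all genes in that comparison from -0.096 to 0.022. The 647 genes at least 1 log2 unit from WT in all 3 lines became 1021 with a pseudocount of 0.1 and 35 at a distance of 2. Over 1481 pairs of a named gene and an alternative, 177 lost a call, 66 gained 1 and 0 reversed. The cause of these changes was not tested. WT, DKO and TKO are 1 library each and were not left out. No paired analysis was possible because the compared groups share fewer than 2 replicate numbers. This concerns pairing by replicate number only. The DKO and TKO add-backs can be matched by the restored enzyme, and the fit with the enzyme term did so (3271 called between them). WT and DKO have no restored enzyme to match by. At 24.8 to 32.5 M reads, genes near 0 rest on few reads.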
